A study of Mus musculus with 6 samples.

Results

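The remote myocardium (RM) of mice subjected to ischemic preconditioning (IPC) was compared with the area at risk (AAR) of sham-operated mice, using 4 of the 6 arrays of the series. IPC is a series of short coronary occlusions, each followed by reperfusion, that makes the heart more resistant to a later, longer occlusion. The AAR is the tissue fed by the occluded artery, and the RM is muscle beyond its reach, sampled from the right ventricle according to the study's methods. The 2 IPC RM arrays came from mice 004 and 008, which received 4 cycles of 4 min of ischemia and 4 min of reperfusion and then 30 min of reperfusion by the series' design text (the methods give another cycle length). The 2 sham AAR arrays came from mice 012 and 013, which underwent the sham procedure. The records list every animal as C56BL7 (so spelled), female and 12 months old, with no further genetic change, whereas the methods give the strain as C57BL6 and name mice of both sexes. The 2 IPC AAR arrays of mice 004 and 008 are shown beside them where a value needs a reference. The comparison sets tissue outside the occluded bed of preconditioned mice beside the AAR of sham mice. Treatment, heart region and slide all differ between its groups, since slide 1 held the IPC arrays and slide 2 those of the sham mice, and these cannot be told apart.

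Long noncoding RNAs (lncRNAs) are transcripts that do not encode protein, many of which act in the nucleus on chromatin or as scaffolds for proteins. Long intergenic noncoding RNAs (lincRNAs) are those transcribed between protein-coding genes. Ultraconserved regions are stretches of genome identical between human, mouse and rat, some of which are transcribed, and the array carries a probe for each strand of each such region. Of 59709 probes, 4148 are named as mouse lincRNAs, 1217 as counterparts of human lincRNAs, 962 as ultraconserved regions, 161 by an AK cDNA accession, 1261 by another accession and 118 by the RefSeq accession of an mRNA. The remaining 51842 have only a design number and their transcripts are not named here. All values are log2 processed signals (fluorescence after background subtraction), quantile normalized over the 6 arrays, so a shift shared by most transcripts would not be seen. In a tissue biopsy, fewer cells of a type and less RNA per cell cannot be told apart. Values of different probes are not comparable as levels.

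The labels were checked against the data before the groups were compared. On the arrays labelled IPC RM, Xist, the RNA that coats and silences one X chromosome in female cells, was low. The probe matched to its transcript ENSMUST00000127786 read 7.40 and 7.71 on the IPC RM arrays of mice 004 and 008, 12.95 and 12.80 on the sham arrays of mice 012 and 013, and 13.31 and 13.28 on the IPC AAR arrays of mice 004 and 008. The probe matched to ENSMUST00000153883 read 5.71 and 5.58 in the IPC RM, 9.20 and 9.18 in the sham AAR and 9.49 and 9.60 in the IPC AAR. For both probes every RM array lay below every AAR array, although the RM and AAR of mouse 004, and those of mouse 008, are recorded as the same animal. The log2 difference, RM minus sham, was -5.33 (SE 0.19) at the first probe, a 40.2-fold lower level, and -3.55 (SE 0.15) at the second, an 11.7-fold lower level. Both probes had an adjusted p of 0.159 in limma on the 4 arrays and were not called. The study tabulated both transcripts as higher in the IPC AAR than on these same RM arrays, and their probes were found by those group means. A limma fit of all 6 arrays called both, but after that choice the call is no support for a difference. The 300-base window around the Xist start (250 bases before it and 50 after, RefSeq, GRCm38.p6, chrX:103483184-103483483, minus strand) is shown because the first Xist probe had the largest decrease among separated probes bright on all 4 arrays. CG dinucleotides, searched on this strand and the same on the other, are in capitals, and DNA methylation at CG sites was not measured here.
Xist: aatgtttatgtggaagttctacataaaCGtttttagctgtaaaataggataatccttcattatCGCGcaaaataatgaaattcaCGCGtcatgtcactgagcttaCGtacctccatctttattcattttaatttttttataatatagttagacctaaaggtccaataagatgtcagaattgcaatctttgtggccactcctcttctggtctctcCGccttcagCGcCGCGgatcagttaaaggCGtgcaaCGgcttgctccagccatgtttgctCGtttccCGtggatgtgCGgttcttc
The window held 15 CG, and 34.6% of 32851 windows of the same length held as many or more.

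Some Y-linked transcripts were detected on the RM arrays and not on the sham arrays, at the low end of the signal range. This group was put together after its values were seen. Of the 118 RefSeq mRNA accessions, 112 matched a gene symbol, and 23 of these lie on the Y chromosome. Of the 23, 15 passed the filter on dim signals and 8 were not well above background on both arrays of either group. Among the 15, 8 were well above background on both IPC RM arrays and on neither sham array, and 0 showed the opposite. Over all 46061 tested probes, 8.46% were well above background on both RM arrays and neither sham array, and 0.0673% the other way round. The 8 were Sly, Ssty1, Gm20831, Gm20822, Gm20877, Gm21943, Gm20736 and Gm20852, and 6 of them were also not well above background on any IPC AAR array. Sly and Ssty1 belong to multicopy families known for their expression in developing sperm. Sly read 5.97 and 5.80 in the IPC RM against 3.76 and 1.34 in the sham AAR, at least 3.56-fold higher in the RM. Ssty1 read 4.27 and 4.12 against 1.39 and 1.38, at least 1.11-fold higher in the group means. Over the 8, RM values lay between 2.94 and 5.97 and sham values between 1.34 and 3.76, an order that follows largely from how the 8 were picked and is no support for a difference. A bound of this kind sets the mean of the bright group against the lowest signal that counted as well above background on each dim array, or the dim probe's own value where higher. It holds for the group means only, and a single bright array can lie below that lowest signal. On the array of sham mouse 012 the lowest such signal was 4.60, above both RM values of Ssty1. The bound was 1.03 for Gm20877, and Gm20822, Gm20736 and Gm20852 were too dim in the RM to give one.

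Another 5 Y-linked genes had signal on all 4 arrays, and their differences had both signs. Gm20738 read 7.03 and 7.20 in the IPC RM against 5.80 and 6.10 in the sham AAR. Gm20854 read 7.04 and 7.15 against 8.57 and 7.99. H2al2b, a histone H2A-like gene, read 6.46 and 6.75 against 6.24 and 5.94. In these 3 genes the groups did not overlap, with Gm20738 and H2al2b higher and Gm20854 lower in the RM. Gm20823 was also higher on both RM arrays (6.35 and 6.65 against 6.19 and 5.42), and so was Gm20806 (5.63 and 5.59 against 5.38 and 5.25). The IPC AAR, in which Xist was high, had means of 7.19 for Gm20738 and 5.66 for Gm20806, beside RM means of 7.12 and 5.61. For Gm20854 the IPC AAR mean was 8.54, between the sham values and above both RM values. For Gm20823 it was 6.95, above both RM values, and for H2al2b 6.41, below both RM values. None was called, with limma adjusted p between 0.181 for Gm20738 and 0.398 for Gm20806. Genes of this kind have near-identical copies, so a probe can take up signal from several of them. The start windows of Gm20806 (GRCm38.p6, chrY:78836670-78836969, minus strand) and Gm20854 (chrY:85529470-85529769, minus strand), from RefSeq, are shown because the values of these near-identical copies differed in sign, neither passing the test. Capitals mark the 4 of 300 bases at which they differ.
Gm20806: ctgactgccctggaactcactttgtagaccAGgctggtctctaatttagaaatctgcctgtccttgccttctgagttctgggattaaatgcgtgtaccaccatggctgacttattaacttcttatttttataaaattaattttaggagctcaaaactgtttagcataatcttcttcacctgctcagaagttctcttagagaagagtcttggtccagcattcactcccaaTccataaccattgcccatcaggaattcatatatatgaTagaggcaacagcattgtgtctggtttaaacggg
Gm20854: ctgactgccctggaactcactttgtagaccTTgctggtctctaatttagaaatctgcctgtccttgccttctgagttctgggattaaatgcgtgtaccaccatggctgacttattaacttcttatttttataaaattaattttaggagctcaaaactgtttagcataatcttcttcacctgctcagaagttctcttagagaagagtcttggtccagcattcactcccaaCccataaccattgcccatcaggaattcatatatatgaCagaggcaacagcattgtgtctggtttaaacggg
Of the 23 genes, 20 had such a window, and 7 of these shared at least 270 of 300 bases with another of the set. The Xist values differ between the RM and AAR of the same recorded animals, all listed as female. Of the Y-linked genes with signal on all 4 arrays, Gm20854 was lower in the RM and the others higher. Whether probes of such multicopy genes can show the sex of a heart biopsy was not tested. The part of the Xist and Y-linked values in the differences described below was not tested, and without the RM arrays no comparison remains.

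**Figure D1:**
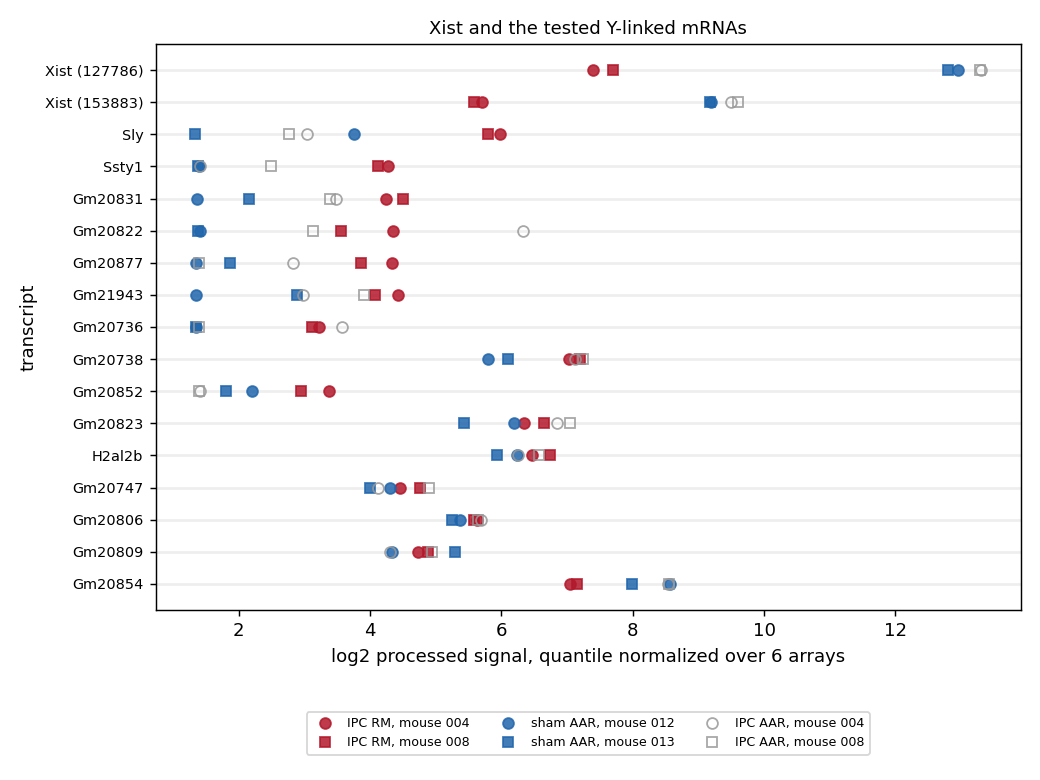
Log2 processed signal (x axis, quantile normalized) of the Xist probes and of the 15 tested Y-linked mRNAs on each of the 6 arrays, with 1 point per array. The RM arrays lie below all other arrays for Xist, and above both sham arrays for all of the Y-linked genes shown except Gm20809 and Gm20854, with most of the Y-linked values near the bottom of the range.

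Across the array, no difference between IPC RM and sham AAR passed the test. The test covered the 46061 probes whose signal cleared the background on both RM arrays, on both sham arrays or on all 4. A probe was called at a Benjamini-Hochberg adjusted p below 0.05 if the groups also differed more than 2-fold. Limma called 0 probes (0%), of which 0 were noncoding by name, and the smallest adjusted p was 0.159. At an unadjusted p below 0.05 there were 7554 probes (16.4%), and 2697 of these also differed more than 2-fold, 1684 higher and 1013 lower in the RM. The methods' t-test also called 0 at both limits, although 1 probe with a fold of 1.20 passed the limit on adjusted p (9.2e-05), with 1435 past the same limits before adjustment. A single fit of all 6 arrays, in which the IPC AAR arrays add to the estimate of the spread, called 213 of 46041 probes (0.463%). It treats the arrays as independent, although the IPC AAR and RM arrays are recorded as sharing mice 004 and 008. On the 4 arrays, an intensity trend in the moderation called 11. For a single probe, an exact two-sided permutation test of 2 against 2 cannot go below 0.333.

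Differences were therefore also counted without a test. Probes were taken as separated when the lower array of one group lay more than 2-fold above the higher array of the other. Of the tested probes, 908 (1.97%) were separated with the RM higher and 449 (0.975%) with the RM lower. The excess of higher probes lay among dim ones. Of the 908, 455 were not well above background on either sham array, while 30 of the 449 were dim on both RM arrays. The 35628 probes that cleared the background on all 4 arrays included 323 higher and 361 lower ones. More probes were well above background on the RM arrays (78.4% and 80.5%) than on those of sham mouse 012 (61.0%) and sham mouse 013 (72.2%). The part of this difference in signal over background in the counts by direction was not tested beyond these values.

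The classes of transcript were not alike in their shares. Among counterparts of human lincRNAs, 28 of 626 tested probes (4.47%) were separated with the RM higher and 6 (0.958%) lower. Among ultraconserved regions these were 17 (3.42%) and 5 (1.01%) of 497. Mouse lincRNAs, at 55 (1.92%) and 30 (1.05%) of 2859, had shares near those of all probes. Other accessions had 17 and 9 of 808, AK accessions 1 and 1 of 124, and probes with a design number 783 and 397 of 41053. In the classes with the larger shares of higher probes, fewer probes reached the filter at all (626 of 1217 human lincRNA counterparts and 497 of 962 ultraconserved regions, against 77.1% of all probes), and 16 of the 28 and 13 of the 17 were dim on both sham arrays. Restricted to probes well above background on all 4 arrays, 12 human lincRNA counterparts were higher and 4 lower, and 4 ultraconserved regions were higher and 3 lower.

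**Figure D2:**
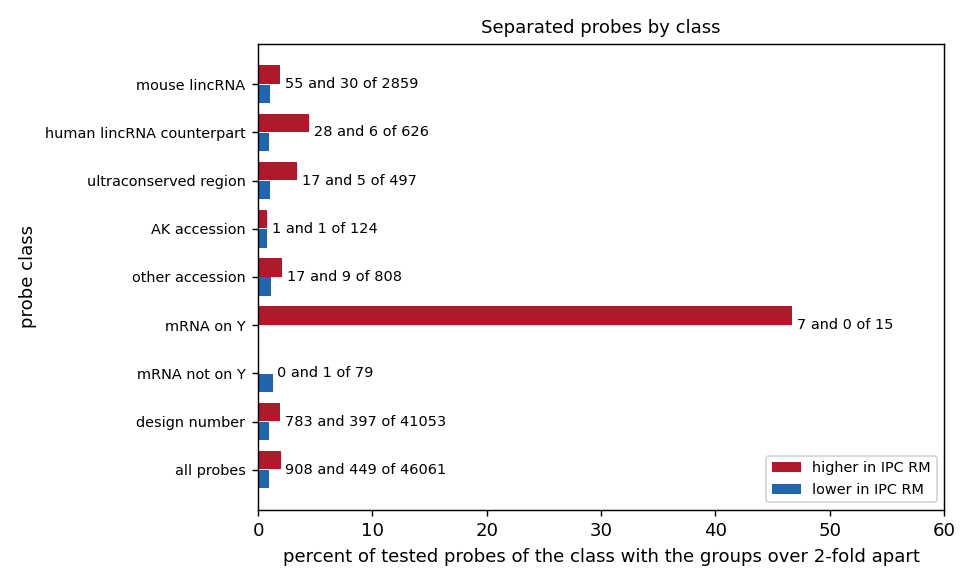
Share of the tested probes of each class (x axis, percent) separated more than 2-fold, with the IPC RM higher or lower than the sham AAR, and the counts beside the bars. Human lincRNA counterparts (4.47%) and ultraconserved regions (3.42%) exceed the 1.97% of all probes on the higher side, and the 7 of 15 Y-linked mRNAs were a group formed after their values were seen.

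The medians of the classes were small beside the spread of single probes. The median log2 difference, RM minus sham, was 0.03 over all tested probes, 0.03 for mouse lincRNAs and 0.03 for other accessions. It was 0.16 for human lincRNA counterparts and 0.17 for ultraconserved regions, and it was -0.10 for AK accessions and -0.09 for RefSeq mRNAs. On probes well above background on all 4 arrays, the human lincRNA counterparts had 0.10 and the ultraconserved regions 0.10, against -0.02 for all probes. Without sham mouse 013 the human lincRNA median was -0.01, and without sham mouse 012 it was 0.28, so its direction depended on which sham array was used.

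Among ultraconserved regions, 3 probes on the strand marked minus stood higher in the RM. The probe uc.460- read 11.54 and 11.80 in the IPC RM against 9.23 and 8.91 in the sham AAR, a log2 difference of 2.60 (SE 0.21, limma adjusted p = 0.159). The probe uc.18- read 9.72 and 9.86 against 8.12 and 7.74, and uc.371- read 12.97 and 13.33 against 11.39 and 11.25. In all 3 the IPC AAR read close to the IPC RM, at means of 11.10, 9.57 and 12.70, so the sham arrays stood apart from all 4 IPC arrays. The opposite strands did not share these values. The probe uc.460+ was not well above background on any RM or sham array, uc.18+ read 4.84 and 4.55 in the RM against 4.59 and 5.62 in the sham AAR, with the groups overlapping, and uc.371+ read 5.81 and 5.87 against 5.71 and 5.41.

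Lower in the RM were uc.451-, uc.243+ and uc.452-. The probe uc.451- read 4.78 and 4.47 in the IPC RM against 8.11 and 7.32 in the sham AAR, with a log2 difference of -3.09 (SE 0.34, limma adjusted p = 0.159), and its IPC AAR values of 7.56 and 7.69 lay beside the sham values. The probe uc.243+ read 4.12 and 2.86 against 5.74 and 5.73, with the IPC AAR at 5.38 and 5.65. In both, the RM arrays stood apart from all 4 AAR arrays. For uc.452-, at 8.20 and 7.98 against 9.55 and 9.72, the IPC AAR (8.77 and 8.84) lay between the groups. The widest bound in this class was that of uc.71+, which was well above background on both RM arrays and neither sham array (4.71 and 5.94 against 4.31 and 2.29), as well as on 1 IPC AAR array, at least 2.41-fold higher.

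Mouse lincRNAs gave the same kinds of value pattern. MM9LINCRNAEXON11316+ read 6.20 and 6.04 in the IPC RM against 9.06 and 9.30 in the sham AAR and 8.69 and 8.83 in the IPC AAR, a log2 difference from sham of -3.05 (SE 0.18, limma adjusted p = 0.159). The lincRNA mouselincRNA0118+ read 8.45 and 8.86 against 6.92 and 6.67, with the IPC AAR at 8.06 and 8.88. The lincRNA mouselincRNA1606- read 11.73 and 12.18 against 10.49 and 9.73, with the IPC AAR at 11.68 and 11.45. The first thus had its RM arrays apart and the others their sham arrays apart. MM9LINCRNAEXON11020+ (10.70 and 10.63 against 7.25 and 9.49) and, on the lower side, MM9LINCRNAEXON10970+ (5.29 and 6.05 against 7.35 and 9.45) rested on sham arrays that differed from each other more than 4-fold. MM9LINCRNAEXON11123+ read 4.497 and 4.48 against 7.75 and 6.28. The widest bound was that of MM9LINCRNAEXON10046-, which read 6.36 and 7.04 in the sham AAR, was not well above background on the RM arrays (1.504 and 1.38) and so was at least 14.3-fold lower in the RM. It was not well above background in the IPC AAR either (2.55 and 1.40), which places the sham arrays apart from all 4 IPC arrays. MM9LINCRNAEXON10890+ was at least 3.26-fold higher in the RM by the group means, with RM values of 4.36 and 7.23. The first of these lay below 4.60, the lowest signal well above background on the array of sham mouse 012.

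Of the human lincRNA counterparts, humanlincRNA0318- and humanlincRNA2159- were bright and higher in the RM. The first read 11.38 and 12.09 in the IPC RM against 9.88 and 8.97 in the sham AAR, a log2 difference of 2.31 (SE 0.44, limma adjusted p = 0.197). The second read 11.31 and 11.91 against 9.94 and 9.28. The third, humanlincRNA2246-, read 7.04 and 7.05 against 4.72 and 5.22, a log2 difference of 2.07 (SE 0.23, limma adjusted p = 0.159). For these 3 the mean of the IPC AAR was 11.34, 11.30 and 7.41, beside the RM. On the lower side, humanlincRNA0635+ read 3.75 and 3.32 against 5.28 and 5.999, humanlincRNA0147+ 5.18 and 5.64 against 6.95 and 7.51, and humanlincRNA0891- 4.20 and 3.98 against 5.92 and 5.28. The bounds in this class were at least 5.53-fold lower for humanlincRNA2046- and at least 2.03-fold higher for humanlincRNA1948-.

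**Figure D3:**
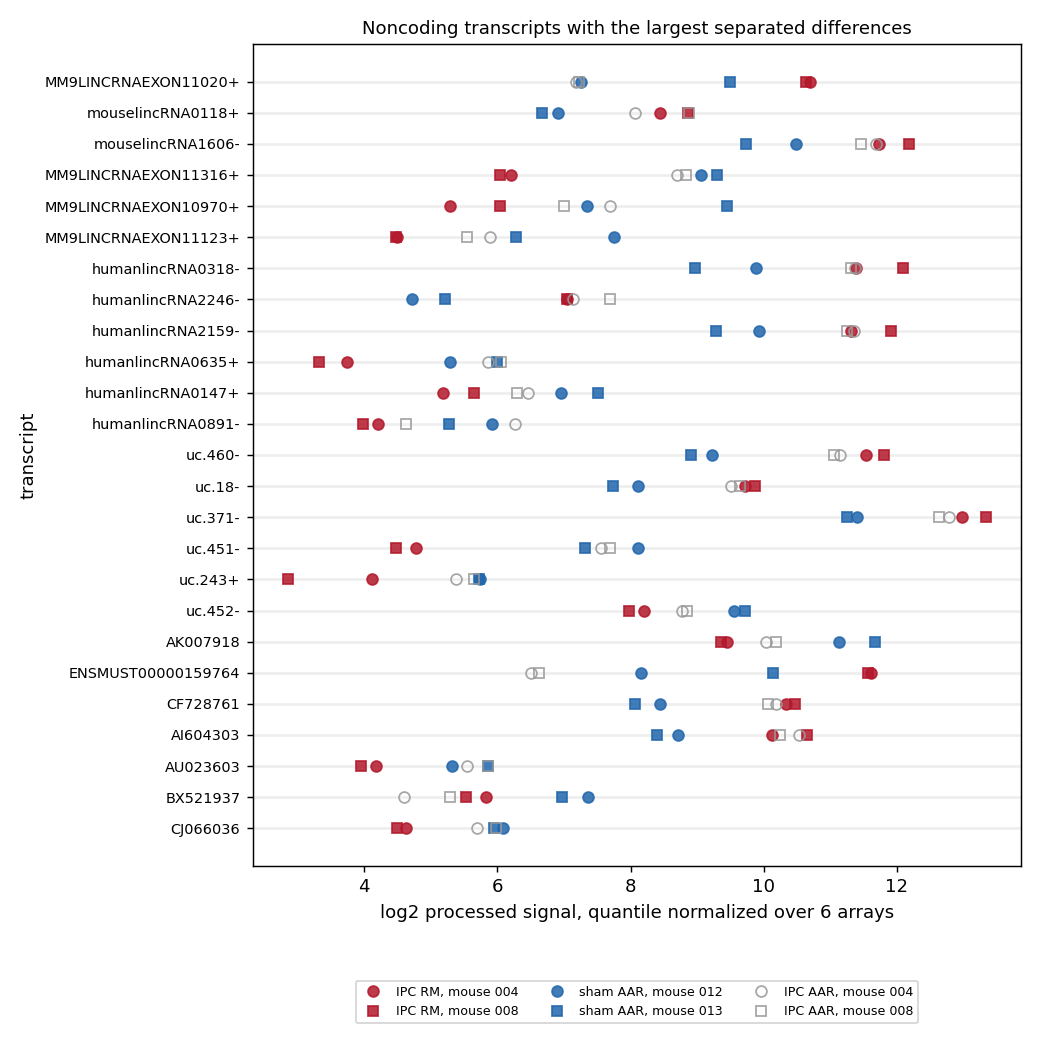
Log2 processed signal (x axis, quantile normalized) of the named noncoding probes, chosen for the largest separated differences of their class, with 1 point per array. For uc.460- and humanlincRNA0318- the open IPC AAR points lie beside the RM points and away from the sham points, while for uc.451- and MM9LINCRNAEXON11316+ they lie beside the sham points.

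Transcripts known by accession completed these classes. AK007918, the only AK accession separated among those bright on all 4 arrays, read 9.44 and 9.35 in the IPC RM against 11.13 and 11.67 in the sham AAR, a log2 difference of -2.00 (SE 0.24, limma adjusted p = 0.163). CF728761 read 10.34 and 10.47 against 8.44 and 8.07, a log2 difference of 2.15 (SE 0.20, limma adjusted p = 0.159), and AI604303 read 10.12 and 10.66 against 8.72 and 8.40. For both of these the IPC AAR lay near the RM, at means of 10.12 and 10.39. ENSMUST00000159764 was higher in the RM (11.61 and 11.56) than in either sham array (8.16 and 10.14), and its IPC AAR values were lower still (6.51 and 6.63). BX521937 (5.83 and 5.53 against 7.36 and 6.98), CJ066036 (4.64 and 4.49 against 6.09 and 5.95) and AU023603 (4.18 and 3.95 against 5.32 and 5.86) were lower in the RM. Among dim probes, BB471769 was at least 12.2-fold lower, although its sham values were 8.42 and 4.51, AK145365 was at least 2.71-fold lower, and ENSMUST00000096847 was at least 4.65-fold higher in the RM, with RM values of 7.86 and 4.83 that put most of this on mouse 004. AK006024 had a bound of at least 2.23-fold higher, but its groups overlapped (5.82 and 4.653 in the RM against 4.655 and 3.23).

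In the fit of all 6 arrays, the 213 calls were 184 design-number probes (0.448% of those tested), 28 noncoding probes (0.570%, beside 0.463% of all probes) and 1 mRNA. The noncoding calls were 13 mouse lincRNAs (0.455%, 5 higher and 8 lower in the RM), 5 human lincRNA counterparts (0.799%, 5 higher), 9 ultraconserved regions (1.82%, 7 higher and 2 lower) and 1 other accession. They included uc.460- (adjusted p = 0.0409 in that limma fit), uc.18-, uc.371-, uc.451-, uc.452-, CF728761, MM9LINCRNAEXON11316+ and MM9LINCRNAEXON10046-. Most of the noncoding calls higher in the RM, all 5 mouse lincRNAs among them, were not well above background on either sham array. These passed the filter only through the RM arrays. An example was uc.101+, which read 4.38 and 4.16 in the RM against 1.37 and 1.38, at least 1.16-fold higher in the group means. Another was humanlincRNA0323+, which read 5.06 and 4.996 against 1.38 and 2.12, at least 1.96-fold higher in the group means. Bright ones with small spread in every group were MM9LINCRNAEXON11331+, lower in the RM at 13.15 and 13.19 against 14.70 and 14.48, and humanlincRNA2397+, higher at 10.90 and 11.07 against 9.24 and 8.96. That fit assumes that the IPC AAR arrays, which were close to each other, vary like the sham arrays, which were not.

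Over all tested probes, 1.97% were separated with the RM higher and 0.975% with the RM lower. Of 95 mRNA accessions off the Y chromosome, 79 were tested. Among these 0 were separated with the RM higher and 1 (1.27%) lower, too few to set them apart from all probes. That gene was B020031M17Rik, at 7.67 and 7.80 in the IPC RM against 10.93 and 10.83 in the sham AAR and 10.60 and 10.41 in the IPC AAR. Its log2 difference from sham was -3.14 (SE 0.15, limma adjusted p = 0.159), or 8.84-fold lower, and it was called in the fit of 6 arrays (adjusted p = 0.0326). The RM arrays stood apart from all 4 AAR arrays. Smaller, non-overlapping differences were lower in the RM for Taf1a, a subunit of the factor that starts ribosomal RNA transcription (11.96 and 11.96 against 12.83 and 12.60), for H2ac19, a histone H2A gene (13.87 and 13.57 against 14.45 and 14.29), and for both probes of Ppp2r3d, a regulatory subunit of protein phosphatase 2A (8.28 and 8.19 against 9.21 and 8.95, and 8.29 and 8.23 against 8.96 and 8.79). The same held for Hhipl2 (5.39 and 5.25 against 6.38 and 5.84) and Vmn1r257, a vomeronasal receptor gene (4.22 and 4.44 against 4.89 and 4.99).

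On the higher side, Jrkl had the largest mean difference among mRNAs bright on all 4 arrays, and it came from 1 sham array. Jrkl read 9.86 and 9.84 in the IPC RM, 6.74 in sham mouse 012 and 9.43 in sham mouse 013, with the IPC AAR at 4.11 and 4.70. Tfrc, the transferrin receptor that brings iron into cells, read 14.36 and 14.30 against 14.27 and 13.37, so that here sham mouse 013 was the array apart. Fam205a2 (5.45 and 5.46 against 5.15 and 4.45), E330014E10Rik (7.13 and 7.30 against 6.71 and 6.67) and Tcstv1 (6.73 and 6.73 against 6.43 and 6.41) were higher by less than 2-fold in their means.

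Transcripts often used as references were at similar levels in both groups. The files name a probe for 8 of 10 housekeeping genes, and their log2 differences, RM minus sham, lay between -0.30 for Rpl13a, a ribosomal protein gene, and -0.03 for Hprt, a purine salvage enzyme. With each array scaled to its 75th percentile instead, all 8 remained below 0, between -0.65 for Ppia and -0.12 for Tbp. Gapdh, a glycolytic enzyme, read 18.11 and 18.19 against 18.28 and 18.23, and Actb, cytoplasmic actin, read 13.58 and 13.57 against 14.03 and 13.59. Of 8 paraspeckle genes, 1 has an mRNA probe named by accession: Nono, a protein of these nuclear bodies, which read 12.41 and 12.43 in the IPC RM against 12.12 and 12.14 in the sham AAR (log2 difference 0.29, SE 0.14, limma adjusted p = 0.393). The RM arrays were above both sham arrays, and the difference fell to 0.06 under the 75th percentile. For the other 15 lists, of heart muscle and other cell type markers, stress responses, neighbouring tissues and further gene groups (101 genes), 0 have an mRNA probe named by accession, so neither the labelled heart region nor the cell makeup could be checked.

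The sham arrays were less alike than the RM arrays, and this touches every value above. At 34553 probes the signal cleared the background on every one of the 6 arrays, and a gap of more than 2-fold separated sham mice 012 and 013 at 7.64% of them and the RM arrays at 0.524%. The correlation of sham mouse 013 with the RM arrays was 0.984 and 0.982, and with sham mouse 012 it was 0.979. Among 35628 probes bright on the 4 arrays compared, both RM arrays were more than 2-fold above sham mouse 012 at 1947 (5.46%) and above sham mouse 013 at 623 (1.75%). More than 2-fold below, the counts were 1156 (3.24%) and 1132 (3.18%). Both RM arrays were more than 2-fold below both sham arrays at 361 probes and above both at 323. By definition these counts cannot exceed those for either sham array alone.

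The difference between the sham arrays ran along the difference between the IPC biopsies, mainly where the IPC AAR was below the RM. Sham mouse 012 minus sham mouse 013 had a Pearson r of 0.533 and a Spearman rho of 0.465 with IPC AAR minus IPC RM across the 34553 probes. The arrays on each side are not shared, but all 6 were normalized together and probes are not independent replicates. At the 733 probes whose IPC AAR mean was more than 8-fold below the RM mean, sham mouse 012 was more than 2-fold below sham mouse 013 at 376 and above it at 0. At these probes the median log2 difference of the RM from sham mouse 012 was 1.27 and from sham mouse 013 was 0.24, against 3.71 from the IPC AAR. Where the IPC AAR and RM lay within 2-fold (27460 probes), 522 were more than 2-fold lower and 714 more than 2-fold higher in sham mouse 012, with a median difference of 0.19 between the sham arrays. At the 3109 probes with the IPC AAR 2- to 8-fold below the RM, sham mouse 012 was more than 2-fold below sham mouse 013 at 725 and above it at 8. At the 3188 probes with the IPC AAR 2- to 8-fold above the RM, it was above at 177 (5.55%) and below at 103 (3.23%), with a median difference of 0.28. At the 63 probes more than 8-fold higher in the IPC AAR, sham mouse 012 was above sham mouse 013 by more than 2-fold at 14 and below at 2. By class, r was 0.599 for ultraconserved regions (269 probes), 0.548 for design-number probes (31178), 0.443 for RefSeq mRNAs (75), 0.415 for other accessions (573), 0.401 for AK accessions (91), 0.290 for mouse lincRNAs (1982) and 0.0901 for human lincRNA counterparts (385).

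**Figure D4:**
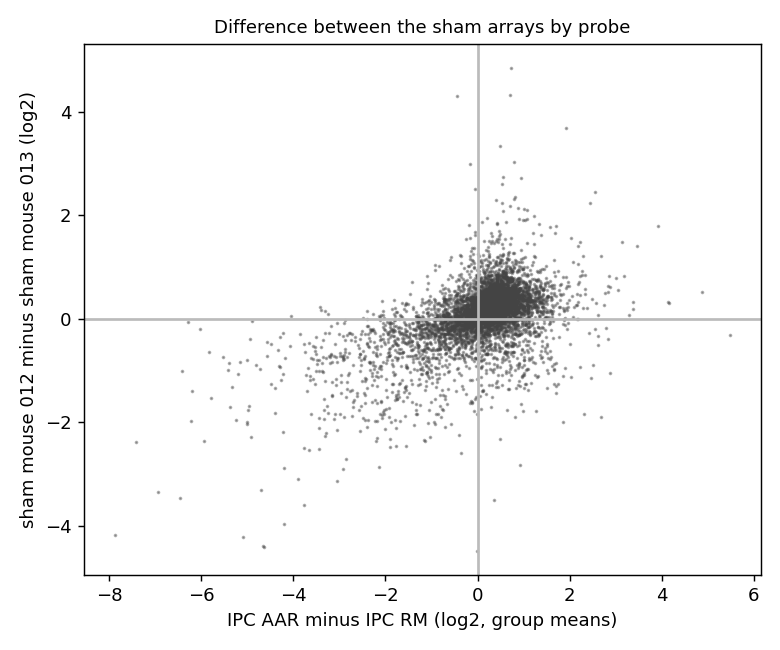
Log2 difference between sham mice 012 and 013 (y axis) against the log2 difference between the mean IPC AAR and the mean IPC RM (x axis), for a random 6000 of the 34553 probes bright on all 6 arrays, with 1 point per probe. Probes far to the left, with the IPC AAR below the RM, lie mostly below 0 on the y axis, and few points lie far to the right.

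The sham arrays also parted at many of the 20 lncRNAs that the study tabulated for the IPC biopsies. These were chosen by the study on the RM arrays and their probes were found here by the group means of the IPC AAR and RM, so their values are given as a description. For the 10 that were lower in the IPC AAR, the RM was more than 2-fold above sham mouse 012 in 8 and above sham mouse 013 in 0. The median log2 difference of the RM was 1.97 from sham mouse 012 and 0.26 from sham mouse 013. Neat1, the RNA scaffold of paraspeckles, read 12.09 on both RM arrays, 9.99 in sham mouse 012, 11.95 in sham mouse 013 and 5.72 and 6.02 in the IPC AAR. The widest gaps between the sham arrays were at Gm15502 (RM 15.25 and 15.20, sham 9.50 and 14.80), Gm8459 (RM 12.47 and 12.54, sham 7.12 and 12.22) and Gm5379 (RM 11.72 and 11.80, sham 6.63 and 11.50). At these the sham mouse 012 array lay close to the IPC AAR, which averaged 8.80, 6.46 and 5.85. Son, whose gene encodes a splicing cofactor, read 10.53 and 10.48 in the RM against 8.84 and 10.38. Gm6706 and Gm15466 read nearly alike on the 4 arrays, at 11.69 and 11.94 against 12.16 and 12.21, and 13.74 and 13.77 against 13.39 and 13.55. Without sham mouse 012, differences of the RM from sham for these 10 lay between -0.40 and 0.43.

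Of the 10 that were higher in the IPC AAR, 4 were separated more than 2-fold between RM and sham AAR, all lower in the RM. Over all tested probes 0.975% were separated with the RM lower. The study chose these 10 for low values on the same RM arrays, so their direction follows largely from that choice. The RM was more than 2-fold below sham mouse 012 in 7 and below sham mouse 013 in 5. Beside both Xist probes, the separated ones were the transcript of Art1, a muscle ADP-ribosyltransferase gene (RM 7.55 and 7.55, sham 8.80 and 8.72), and the TCR-beta chain transcript (RM 6.08 and 5.81, sham 8.04 and 7.45). For both, the IPC AAR was higher still, at means of 10.83 and 9.47. AK021184 (RM 7.83 and 7.66, sham 10.33 and 7.91) and AK087032 (RM 8.65 and 8.58, sham 10.08 and 9.19) had sham mouse 012 nearer the IPC AAR, whereas AK030243 (RM 5.98 and 6.01, sham 6.47 and 7.13, IPC AAR 9.98 and 9.96) had sham mouse 013 nearer it. Gm15810 read 5.30 and 5.56 in the RM against 5.56 and 5.28, with overlapping groups, and 9.02 and 9.06 in the IPC AAR. AK035076 also overlapped, at 4.49 and 4.29 against 5.93 and 4.14.

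**Figure D5:**
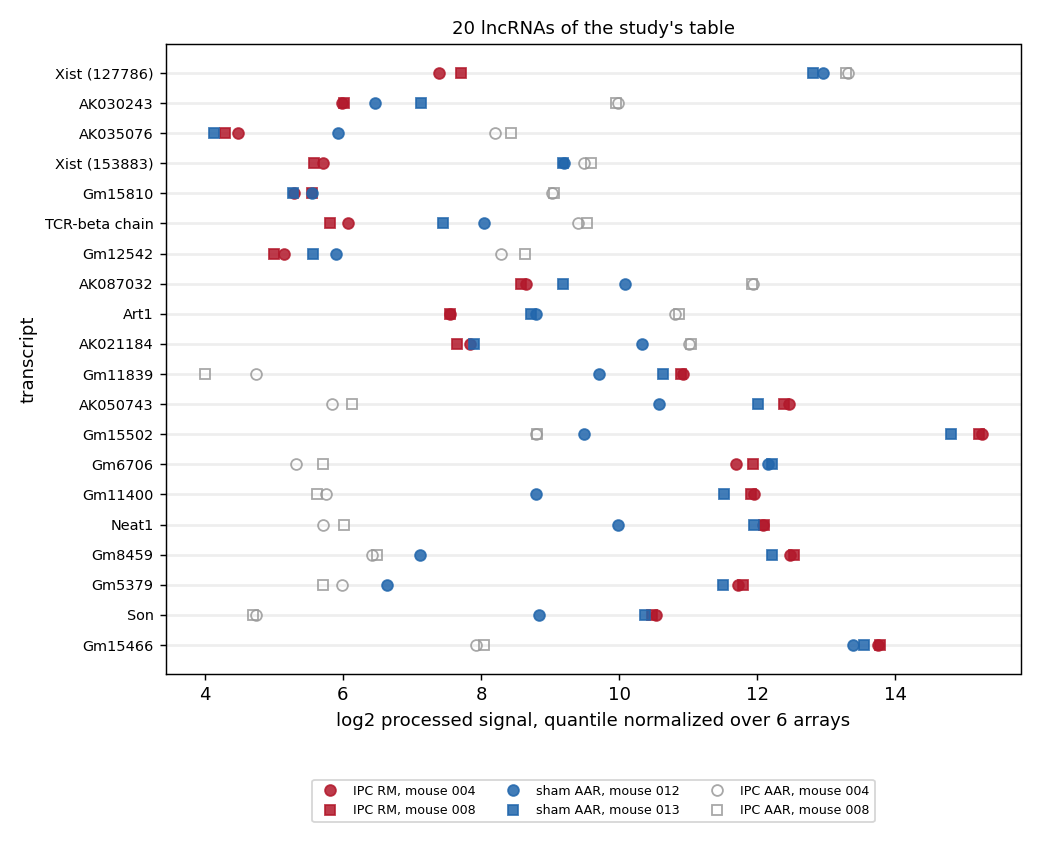
Log2 processed signal (x axis, quantile normalized) of the 20 lncRNAs tabulated by the study on each of the 6 arrays, with 1 point per array and the numbers after Xist giving the end of the transcript accession. In the lower 10 the sham mouse 013 point lies within 0.43 of the RM mean, and sham mouse 012 lies toward the open IPC AAR points for all but Gm6706.

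Among separated probes bright on all 4 arrays, the largest differences belonged to those with a design number. ASMM9PARTA027019 read 13.17 and 13.18 in the IPC RM against 5.56 and 9.74 in the sham AAR, and ASMM9PARTA036391 read 12.14 and 12.06 against 4.84 and 10.47. In both the IPC AAR was low (means 5.30 and 5.42) and sham mouse 012 lay beside it. On the lower side, beside the first Xist probe, ASMM9PARTA042006 read 4.00 and 3.80 against 8.56 and 8.98, a log2 difference of -4.87 (SE 0.22, limma adjusted p = 0.159). It was not well above background on the IPC AAR arrays (3.91 and 3.76), so the sham arrays stood apart from all 4 IPC arrays.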

How the data were processed

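The authors hybridized Cy3-labelled cRNA of each biopsy to its own Arraystar Mouse LncRNA Array v2.0 and read the spots with Agilent Feature Extraction, version 11.0.1.1 per the file headers. The deposited intensity used here is the processed signal, corrected for background within each array and not normalized between arrays. A further table of 6 columns of log2-like values was not used, since its column names matched no sample record.

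Control spots were left out, outlier spots (17 to 29 per array) were removed, spots of a probe were averaged as log2 values (15 mRNA probes had 20 spots), and the 6 arrays were quantile normalized in R 4.3.3 with limma 3.58.1. Such a repeated probe was taken as bright if the flag was set for a share of 0.5 or more of its spots. Of 59994 spots per array, the flag for signal well above background was set for 36699 and 43388 on the sham arrays and 47108 and 48359 on the RM arrays, and 0 were saturated. Precision is limited by there being 2 arrays per group. IPC RM and sham AAR were compared with lmFit and eBayes on their 4 arrays, with Benjamini-Hochberg adjustment over 46061 probes. Limma SEs and p-values use the spread between these mice, with each probe's variance drawn by eBayes toward a value common to all probes. They do not measure the spread of a single probe alone. The procedure was run on simulated data with the same spread in both groups. The sham and RM arrays here differed in spread, so that run does not show how the test performs on them.

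Named probes were, per noncoding class, the 3 with the largest difference in each direction among separated probes bright on all 4 arrays and the largest bound in each direction, 2 in each direction among design numbers, the 8 largest non-overlapping mRNAs in each direction, the genes of 17 lists, and the 20 tabulated lncRNAs, whose probes lay within 0.12% of both IPC group means (next nearest at least 3.07% away). Y-linked mRNAs and calls of the 6-array fit were named after their values were seen. Members and lists were chosen with earlier results of these data known. Symbols came from RefSeq (GRCm38.p6) by accession without version, and no coordinates are given for probes, since the array was designed on another build.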

Additional observations from a re-analysis of the deposited data

How the results depend on the processing

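Limma called 0 probes under 75th-percentile scaling, quantile normalization over the 4 arrays, normexp background correction, the stricter filter, no filter and with outlier spots kept, and the methods' t-test also called 0. An intensity trend called 11 (4 higher, 7 lower), and all 6 arrays in a single fit called 213 (113 higher, 100 lower, 28 of them noncoding). Leaving out 1 array gave between 0 and 6841 calls, with 0 to 4773 higher, 0 to 2068 lower and 0 to 697 noncoding. The 0 came without either RM array, 3394 (1399 higher, 1995 lower) without sham mouse 012 and 6841 (4773 higher, 2068 lower) without sham mouse 013, where the lone sham array is assumed to vary like the RM arrays.

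Probes separated 2-fold (908 higher, 449 lower) became 206 and 107 with normexp, 323 and 361 with the stricter filter, which tests fewer probes, and 1105 and 1044 with no filter, which adds dim probes. Without 1 array they ranged from 1719 to 4684 higher and from 686 to 2944 lower, since fewer arrays have to be apart. Probes past a 2-fold change at p below 0.05 before adjustment (1684 higher, 1013 lower) became 465 and 190 with normexp, 841 and 594 by the methods' t-test, 690 higher with the stricter filter and 1860 lower with no filter, and ranged without 1 array from 1413 to 5048 higher and from 599 to 3323 lower. The 75th percentile moved the share of higher among separated probes from 66.9% to 58.0% and the median of all probes from 0.03 to -0.03.

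Of 98 named probes tested, 90 kept their direction in every setting. With the 75th percentile Gm15810 went to -0.0026, Gm15466 to -0.013 and Hsp90ab1 to -0.42. Ldhal6b went to -0.0025 with normexp and -0.0658 with outlier spots kept. Without 1 array, Gm20809 ranged from -0.49 to 0.47, Gm15810 from -0.13 to 0.15, Hprt from -0.10 to 0.0482, AK035076 from -1.54 to 0.25, Gk from -0.23 to 0.16 and Ldhal6b from -0.0658 to 0.25. The cause was not tested where none is given. No paired analysis was possible because the groups compared come from different mice and share no number. The slide could not be fitted as a block, as each slide holds 1 of the groups. Signal over background limits the probes higher in the RM, 455 of 908 separated ones being dim on both sham arrays.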
